A study of Caenorhabditis elegans with 2 samples.

Results

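The heterochronic genes set the order of larval fates in Caenorhabditis elegans, and 10 of them were examined here, of 19973 annotated protein-coding genes: lin-14, lin-28, lin-29, lin-41, lin-42, lin-46, lin-66, hbl-1, daf-12 and alg-1. They were chosen by name with earlier results of these data known, and all 10 were found in the annotation. Their counts are therefore set beside those of all genes as a description only. For each gene, the peaks were taken whose summit lay in the gene body or within 2 kb upstream of an annotated 5' end. This stretch is called the gene's window below.

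The peaks come from ChIP-seq of D1046.2, a protein tagged with green fluorescent protein (GFP) and precipitated with an antibody to GFP from sonicated chromatin. The worms were whole L4 larvae, the last larval stage, at 50 hours of age, grown from L1 larvae that had been starved after bleaching to bring them into step. Both samples were strain OP397, which carries the transgene wgIs397 in an unc-119(tm4063) background. The transgene holds D1046.2 with a TY1, EGFP and 3xFLAG tag from genomic clone 91F09, beside a rescuing unc-119(+) marker. There was 1 group with 2 samples, labelled as biological replicates, so no conditions were compared. A control library was not analysed. Because whole worms were used, occupancy in a few cells and weaker occupancy in many cannot be told apart.

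In the heterochronic pathway, each larval stage has its own pattern of cell divisions, and switches between stages are driven by falling levels of early regulators such as LIN-14, LIN-28 and HBL-1. MicroRNAs, among them lin-4 and the let-7 family, bring these levels down by acting on the messenger RNAs. Late in larval life the fall of LIN-41 releases LIN-29, which directs the adult programme of the skin cells called seam cells.

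The files held peak lists on the ce11 genome build, thresholded by the irreproducible discovery rate (IDR). The IDR measures how consistently a region ranks between rankings that are compared. For a list from a single replicate these cannot be the 2 samples, and what was compared there is not stated in the sources used. A lower IDR means a more reproducible region, and all thresholded peaks used here had an IDR of at most 0.01. The main list, called conservative by the authors, held 1546 peaks with signal quartiles of 83.4 and 124 and a highest signal of 3151. The optimal list held 1641 peaks, the list of replicate 1 alone 619 and that of replicate 2 alone 463. Signal is the authors' own value for a peak, and its scale is not stated in the labels or files. Over the conservative peaks the median was 95.5 in the pooled call, 50.6 for replicate 1 and 47.9 for replicate 2, so each signal is read against the other peaks of its own call, and no ratio between replicates is given. Ranks in the text are by signal, with the strongest peak first, while list membership follows the IDR. Ranks of a pooled peak are among the 1546 conservative peaks, and ranks in a replicate are among all candidate regions of that replicate. No read counts were used and the depth is unknown, so no limit of detection can be given for a gene without a peak.

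Of the 10 timing genes, 5 had a conservative peak in their window: lin-14, lin-46, lin-66, daf-12 and alg-1. The same criterion was met by 1536 of all 19973 protein-coding genes, or 7.69%. The other 5, lin-28, lin-29, lin-41, lin-42 and hbl-1, had candidate regions but no thresholded peak in any list. In the optimal list the same 5 timing genes had a peak, against 8.20% of all protein-coding genes. In replicate 1 alone, 1 of the 10 had a peak, lin-66, against 3.47% of all genes. In replicate 2 alone, 1 of the 10 had a peak, lin-14, against 2.60%. The replicate 2 peak at lin-14 was another region than the conservative one there. Of the 6 conservative peaks at these genes, that of lin-66 alone overlapped a peak in a replicate's own list. The maps of the gene windows show where the peaks and the other candidate regions lay.

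**Figure D1:**
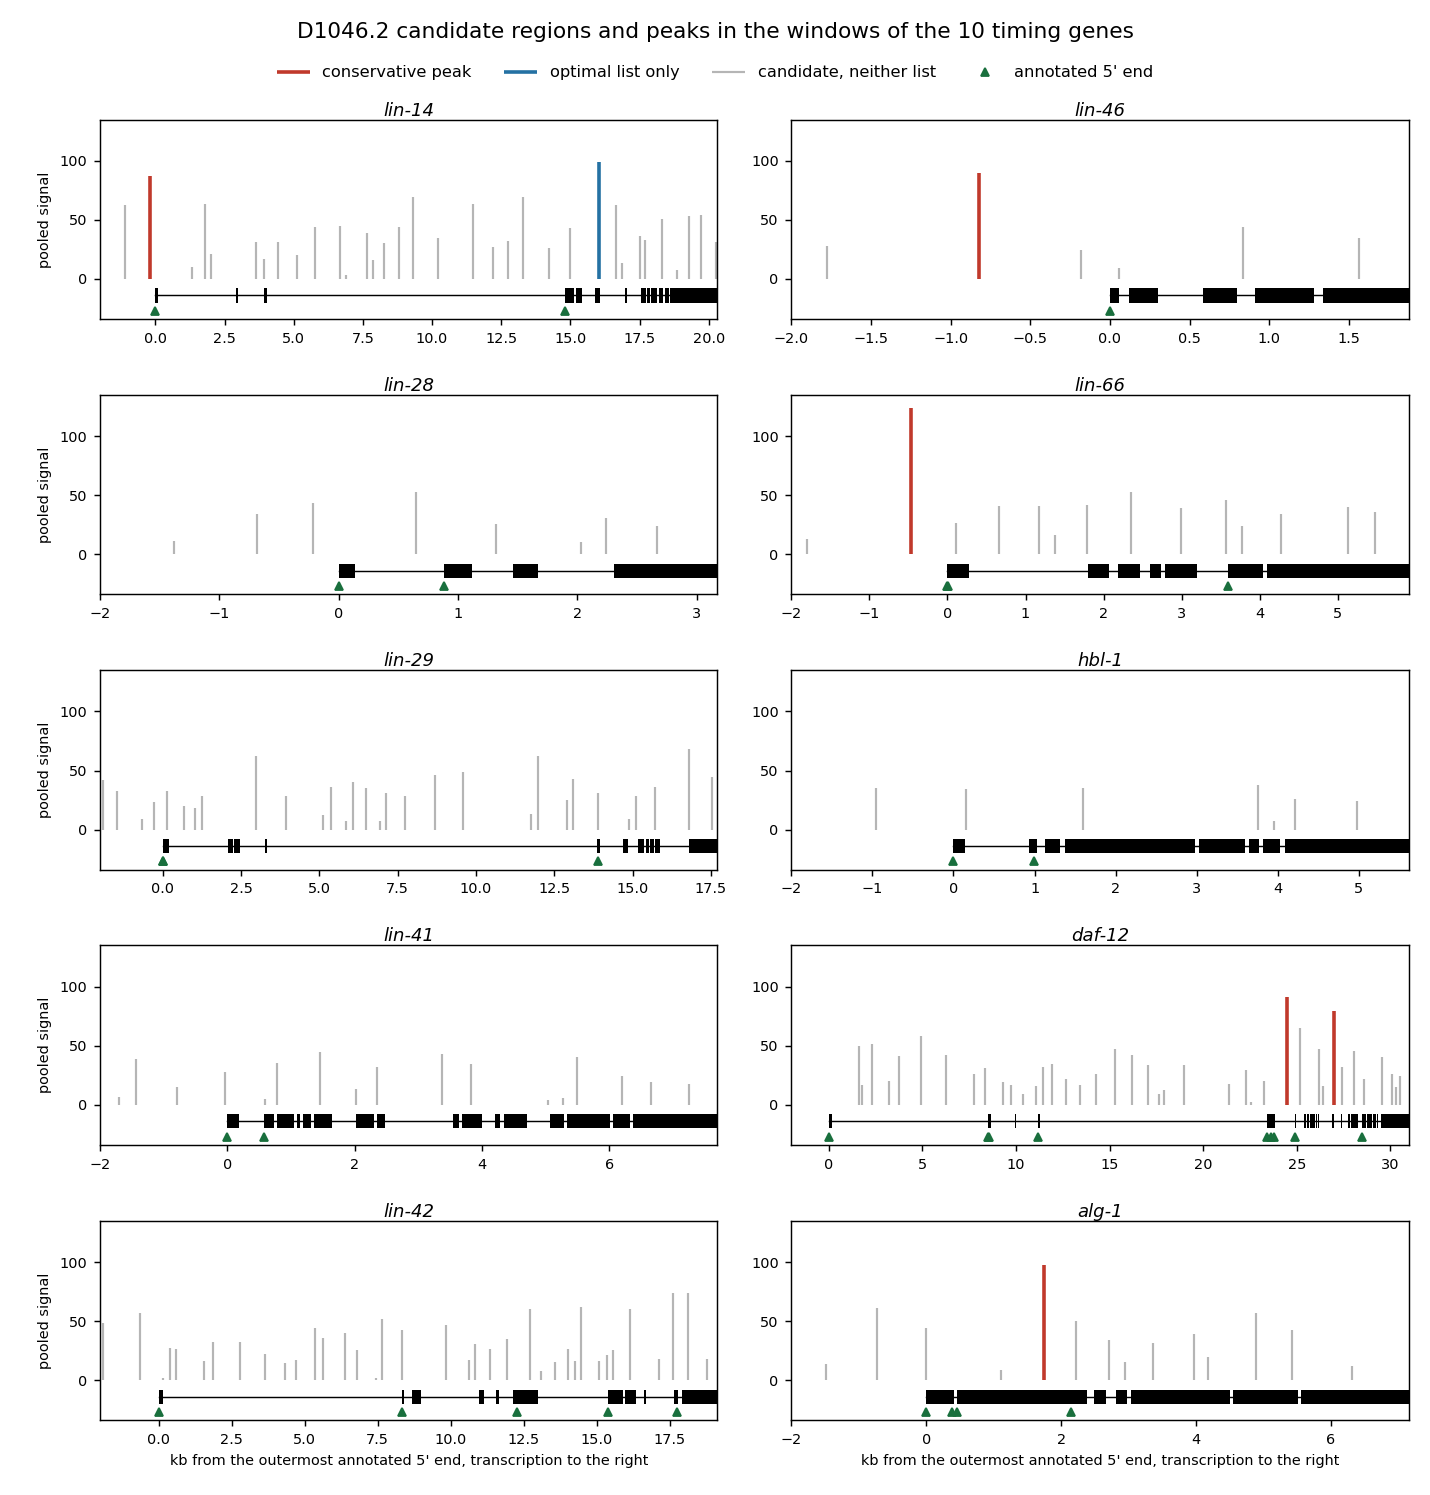
Windows of the 10 timing genes, 1 panel each, with distance from the outermost annotated 5' end in kb on the x axis (its scale differs between panels), pooled signal as the height of each region's line, exons as black boxes and 5' ends as triangles. Conservative peaks appear in 5 panels, upstream of lin-14, lin-46 and lin-66 and inside daf-12 and alg-1.

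The 5 genes held 6 conservative peaks, since daf-12 had a pair of them. Their pooled signals ran from 79.2 to 124, none above the upper quartile of the list, and their ranks from 388 to 1311 of 1546. Of the 6 summits, 3 were intergenic, 2 intronic and 1 in a 5' untranslated region, while intergenic sequence held 48.8% of all conservative summits, introns 27.4% and 5' untranslated regions 2.20%. A promoter was taken as the 500 bp before an annotated 5' end and the 100 bp after it, and it held a summit at 4 of the 10 timing genes (lin-14, lin-66, daf-12 and alg-1). Of all protein-coding genes, 2.34% had a conservative summit in a promoter.

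The first gene by pathway order is lin-14 (WBGene00003003, X 11465560 to 11485871, plus strand), which encodes a nuclear DNA-binding protein that specifies early larval fates and is the classic target of the lin-4 microRNA. Its conservative peak, at X 11465232 to 11465527, was intergenic, with the summit 180 bp upstream of the gene's outermost 5' end. The pooled signal was 86.9 (rank 1030 of 1546, IDR 0.00484), with 41.1 in replicate 1 and 45.4 in replicate 2. Both signals were below the median of that replicate over the conservative peaks, and neither replicate's own thresholded list held the peak. Genes for the noncoding RNAs T25C12.8 and T25C12.9 lie within 500 bp of the summit, so the peak cannot be assigned to lin-14 alone. The summit sequence, from the RefSeq genome, is shown as that of the promoter peak. As in the other summit sequences given here, capitals mark a match to any of 8 short motifs searched, and a sequence wholly in lower case has none.
lin-14 promoter, chrX:11465330-11465430 (ce11, + strand): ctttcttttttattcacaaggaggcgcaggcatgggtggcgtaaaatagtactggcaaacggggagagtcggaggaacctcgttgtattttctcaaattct

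A further lin-14 region, at X 11481440 to 11481735, lay in a coding exon, 1227 bp downstream of an inner 5' end and 16028 bp from the outermost one. It had a higher pooled signal than the promoter peak, 98.8, but its IDR was 0.0154 in the conservative ranking, outside the threshold. In the optimal ranking its −log10 IDR was 2.67, and the optimal list held it. The signal was 30.7 in replicate 1 and 59.6 in replicate 2, with a rank of 9875 in replicate 1 and 497 in replicate 2. The own list of replicate 2 held it, and that of replicate 1 did not.

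daf-12 (WBGene00000908, X 10635908 to 10666875, plus strand) encodes the nuclear hormone receptor that ties stage progression to steroid signalling and to the choice of entering the dauer diapause stage. It has the longest window of the 10 genes, 33.0 kb, with 9 annotated 5' ends, and both of its peaks lay deep inside the locus. The first, at X 10660227 to 10660522, was in an intron, with the summit 427 bp upstream of an inner 5' end and 24467 bp from the outermost one. Its pooled signal was 91.6 (rank 880, IDR 0.0034), with 54.9 in replicate 1 and 39.8 in replicate 2. The second, at X 10662751 to 10663046, had its summit in an intron, 1507 bp upstream of an inner 5' end. That summit lay 26.991 kb from the outermost 5' end, just past an exon that ends at 26.982 kb. The peak covers this exon, and its summit sequence includes exon bases. The pooled signal of the second peak was 79.2 (rank 1311, IDR 0.00706), with 41.1 in replicate 1 and 40.5 in replicate 2. The second peak missed the optimal list, where its −log10 IDR was 1.99, and it was the weakest of the 6. Neither peak was in a replicate's own list. The summit sequences are shown to set the pair side by side.
daf-12 first, chrX:10660325-10660425 (ce11, + strand): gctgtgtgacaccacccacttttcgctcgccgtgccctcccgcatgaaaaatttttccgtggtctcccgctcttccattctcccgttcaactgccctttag
daf-12 second, chrX:10662849-10662949 (ce11, + strand): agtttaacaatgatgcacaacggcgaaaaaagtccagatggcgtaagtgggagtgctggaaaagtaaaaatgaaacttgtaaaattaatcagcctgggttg
The first holds 55.4% G and C bases and the second 39.6%, against a median of 49.5% over the summit windows of all conservative peaks.

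The zinc finger genes lin-29 and hbl-1 had no peak. lin-29 (WBGene00003015, II 11917642 to 11935343, minus strand) encodes the transcription factor that triggers the larval-to-adult switch. Its best candidate among 30 in the window lay at II 11918402 to 11918697. The summit was in an intron, 16.793 kb from the outermost 5' end, and the region runs into an exon that starts at 16.797 kb. That region had a pooled signal of 68.1 and an IDR of 0.0402, with 29.1 in replicate 1 and 36.9 in replicate 2. hbl-1 (WBGene00001824, X 5822142 to 5827755, plus strand), a hunchback-like gene for early larval fates, had the lowest best signal and the highest best IDR of the 10. Its strongest of 7 candidates, in a coding exon, had a pooled signal of 38.0 and an IDR of 0.384. That region had a signal of 25.5 in replicate 1 and no overlapping region in replicate 2. The candidate of lowest IDR at hbl-1, 0.311, had a pooled signal of 34.7, with 15.4 in replicate 1 and 24.5 in replicate 2.

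lin-66 (WBGene00001562, IV 13888079 to 13893986, plus strand), which in worms is known to lower LIN-28, had the strongest peak of the 10 genes. It lay between genes at IV 13887459 to 13887754, with the summit 472 bp upstream of lin-66. The pooled signal was 124 (rank 388, IDR 0.00233), with 79.6 in replicate 1 and 39.5 in replicate 2. By signal it ranked 268 in replicate 1 and 2840 in replicate 2. The own list of replicate 1 held it, and that of replicate 2 did not. Further conservative summits lay 2831 and 3641 bp upstream of lin-66, just outside the window, with pooled signals of 87.7 and 81.6 and thoc-7 as the nearest gene. The summit sequence is shown because it was the richest in G and C of the timing genes, at 60.4%. The capitals mark GAGAGA.
lin-66, chrIV:13887557-13887657 (ce11, + strand): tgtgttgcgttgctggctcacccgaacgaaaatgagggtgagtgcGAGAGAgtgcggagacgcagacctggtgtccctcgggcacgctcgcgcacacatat

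lin-46 (WBGene00003031, V 12968855 to 12970730, plus strand) encodes a gephyrin-related protein that acts downstream of LIN-28. Its peak, at V 12967886 to 12968181, was intergenic, with the summit 821 bp upstream of lin-46 but only 52 bp upstream of R186.8, and it also fell in the window of R186.3. When each summit was counted only for the gene with the nearest 5' end, lin-46 had no peak. The pooled signal was 89.8 (rank 941, IDR 0.00705), with 43.1 in replicate 1 and 38.8 in replicate 2, and neither replicate's own list held it. The summit sequence is shown since this peak alone among the timing genes held TGATAA, in capitals.
lin-46, chrV:12967984-12968084 (ce11, + strand): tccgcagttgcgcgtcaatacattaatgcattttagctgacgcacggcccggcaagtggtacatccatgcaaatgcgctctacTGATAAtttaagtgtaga

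alg-1 (WBGene00000105, X 13949110 to 13956261, plus strand) encodes an Argonaute protein through which lin-4 and the let-7 family act. Its peak, at X 13950709 to 13951004, lay 1747 bp inside the locus in the 5' untranslated region of a transcript, and 405 bp upstream of an inner 5' end. The pooled signal was 97.4 (rank 732, IDR 0.00606), with 36.9 in replicate 1 and 51.2 in replicate 2. By signal it ranked 4450 in replicate 1 and 842 in replicate 2, and it was in neither replicate's own list. A candidate 726 bp upstream of the outermost 5' end did not pass, with a pooled signal of 61.3 and an IDR of 0.0559.

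lin-42 (WBGene00018572, II 1233236 to 1252359, minus strand), a relative of the Period clock genes that paces the molts, came closest to a peak among the 5 genes without one. Its candidate of lowest IDR, 0.0153, at II 1237753 to 1238048, was intronic and 932 bp upstream of an inner 5' end. That region had a pooled signal of 62.0, with 37.0 in replicate 1 and 36.9 in replicate 2. Its strongest candidate, 142 bp upstream of another inner 5' end, had a pooled signal of 74.1 and an IDR of 0.0272, with 34.9 in replicate 1 and 33.4 in replicate 2. Neither region was in a thresholded list.

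The RNA-binding protein genes lin-28 and lin-41 had no peak either. lin-28 (WBGene00003014, I 8407630 to 8410804, minus strand) encodes the protein that blocks maturation of let-7. Its best candidate, intronic and 239 bp upstream of an inner 5' end, had a pooled signal of 52.8 and an IDR of 0.0842, with 33.3 in replicate 1 and 25.3 in replicate 2. lin-41 (WBGene00003026, I 9334800 to 9342496, minus strand) encodes a TRIM-NHL protein and is a main target of let-7. Its strongest candidate, in a coding exon, had a pooled signal of 44.3 and an IDR of 0.313, with 27.4 in replicate 1 and 15.5 in replicate 2. Its lowest IDR was 0.189, at a region of 42.7. By best −log10 IDR the genes ran from lin-66 (2.63) through daf-12 (2.47), lin-14 (2.32), alg-1 (2.22) and lin-46 (2.15) to lin-42 (1.81), lin-29 (1.40), lin-28 (1.07), lin-41 (0.72) and hbl-1 (0.51). The first 5 lie close together above the threshold of 2.00, and no spread between samples is available for an IDR, so the order among them is a description.

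**Figure D2:**
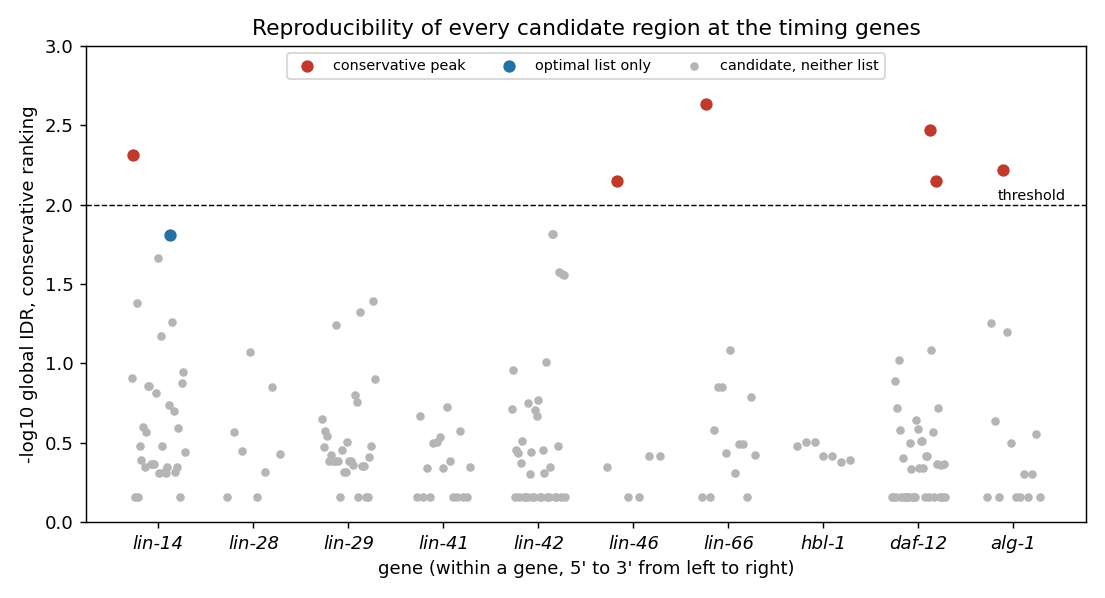
Candidate regions in the window of each timing gene by the −log10 of their IDR in the conservative ranking, where a higher value is more reproducible and the line marks the threshold at 2.00. The 5 genes with a peak have 1 or 2 regions past the line, and lin-42 comes closest of the rest at 1.81.

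The windows of the timing genes held 207 candidate regions, of which 6, or 2.90%, were conservative peaks, against 1.45% of all 106921 candidates. Candidates were also denser there, at 14.8 per 10 kb, against 11.2 per 10 kb over the windows of all protein-coding genes. The median pooled signal of the timing genes' candidates was 31.7, against 28.0 over all candidates of the genome, in or out of gene windows. By gene, the median was 39.8 at lin-66, 36.4 at alg-1, 35.4 at lin-14, 34.7 at hbl-1, 31.1 at lin-46 and 31.0 at lin-29. It was 28.0 at lin-28, 27.9 at daf-12, 26.8 at lin-42 and 24.7 at lin-41.

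Set against the median of each replicate over the 1530 conservative peaks with a region in both, the regions at timing genes lay on both sides. In replicate 1, where the median was 50.6, lin-66 (79.6) and the first daf-12 peak (54.9) were above it. The lin-46 peak (43.1), the second daf-12 peak (41.1), the lin-14 promoter (41.1), alg-1 (36.9) and the lin-14 exon region (30.7) were below it. In replicate 2, where the median was 47.9, the lin-14 exon region (59.6) and alg-1 (51.2) were above it. The lin-14 promoter (45.4), the second daf-12 peak (40.5), the first daf-12 peak (39.8), lin-66 (39.5) and lin-46 (38.8) were below it. The share of all conservative peaks above both medians was not counted, so no trait of the timing genes is read from these values. Of the 6 conservative peaks at timing genes, 5 were in neither replicate's own list, against 879 of all 1546, or 56.9%. Those lists held 35.4% of the conservative peaks for replicate 1 and 26.9% for replicate 2.

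**Figure D3:**
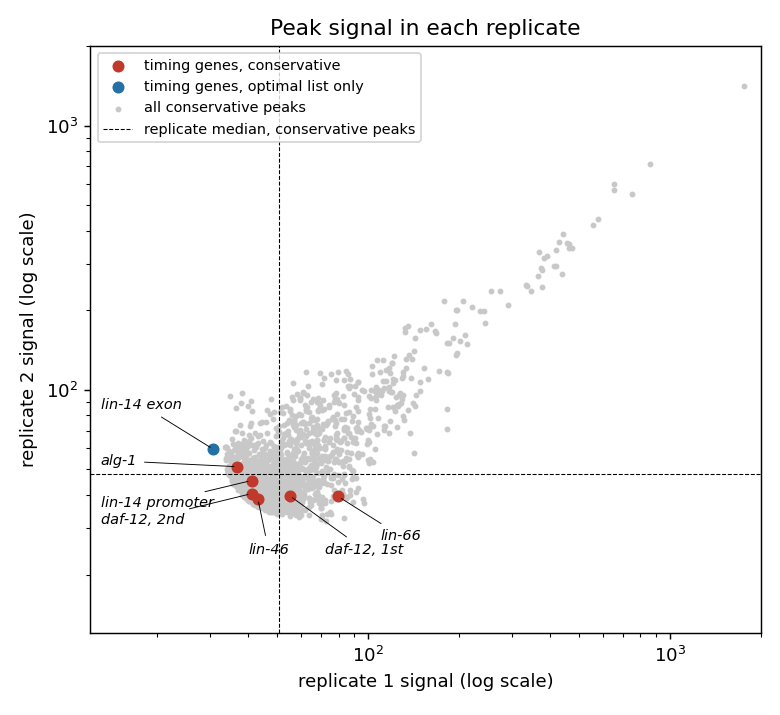
Signal in replicate 1 (x axis) against replicate 2 (y axis), on log scales in the authors' unstated unit, with 1 point per peak and dashed lines at each replicate's median over the 1530 conservative peaks drawn, 50.6 and 47.9. Of the 7 regions at timing genes, lin-66 lies farthest past the replicate 1 line, at 79.6. The lin-14 exon region, from the optimal list only, lies farthest past the replicate 2 line, at 59.6.

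The windows of the timing genes were long, with a median of 9.42 kb, against 4.03 kb over all protein-coding genes, and over all genes the share with a conservative peak varied with window length. It was 5.93% for windows up to 3 kb, 5.60% for 3 to 5 kb, 10.3% for 5 to 10 kb, 15.9% for 10 to 20 kb and 22.8% above 20 kb. Set by these classes, lin-46 was the 1 timing gene of 3 to 5 kb and had a peak, 2 of 5 had one at 5 to 10 kb (lin-66 and alg-1), 0 of 1 at 10 to 20 kb (lin-29), and 2 of 3 above 20 kb (lin-14 and daf-12). Over the 140 kb of all 10 windows there were 4.30 conservative peaks per 100 kb, against 1.71 over the windows of all genes. The density over all genes was 2.46 per 100 kb in windows up to 3 kb, 1.61 at 3 to 5 kb, 1.84 at 5 to 10 kb, 1.52 at 10 to 20 kb and 1.05 above 20 kb. That of the timing genes rests on 6 peaks. Of the 4 timing genes on the X chromosome, 3 had a peak, lin-14, daf-12 and alg-1, against 8.39% of all protein-coding genes of that chromosome.

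**Figure D4:**
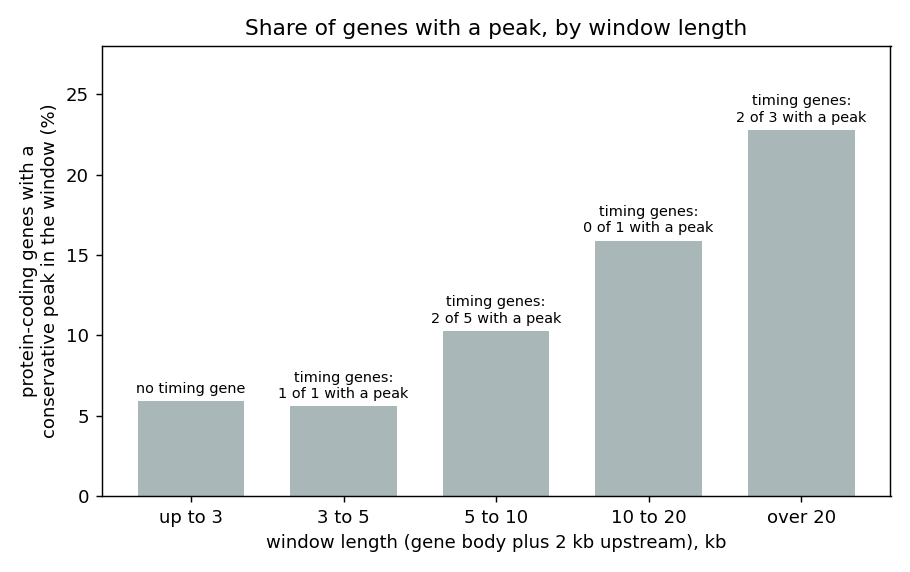
Share of genes with a conservative peak, in percent, for classes of window length in kb, with the timing genes of each class counted above the bars. The share over all protein-coding genes is 5.93% up to 3 kb, 5.60% at 3 to 5 kb and 22.8% above 20 kb, where 2 of 3 timing genes had a peak.

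Motif letters were searched on both strands within 50 bp of each summit, and a match is a description of the sequence only. GAGAGA was in the windows of lin-66 and alg-1, against 10.3% of all conservative windows and 6.26% of all candidate windows. TGATAA was in that of lin-46, against 3.95% of conservative and 7.35% of candidate windows. The other motifs were in none of the windows at timing genes. Among them, CGAACC was in 185 of the 1546 conservative windows and 2.46% of candidate windows. GGGTTCGA, whose reverse complement contains CGAACC, was in 5.30% of conservative and 0.378% of candidate windows. CACGTG was in 4.27% of conservative and 2.36% of candidate windows, and GCGCGC in 6.21% of conservative and 1.17% of candidate windows. GGGCGG was in 6.27% of conservative and 2.74% of candidate windows, and TTTCAG in 9.38% of conservative and 18.3% of candidate windows. Counting the lin-14 exon region, 3 of 7 windows at timing genes held any of the 8 motifs, against 42.6% of all conservative windows. The share of G and C bases ran from 39.6% to 60.4% over these windows, and the median was 49.5% over all conservative windows and 40.6% over all candidates.

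Of 36 other genes of the pathway and its known regulators, 30 encode proteins, 5 microRNAs and 1 a long noncoding RNA, and all were found in the annotation. A conservative peak lay in the window of 9 of the 30 protein-coding genes, or 30.0%, against 7.69% of all protein-coding genes. Their windows were also long, with a median of 7.51 kb. The own list of replicate 1 gave 3 of 30, against 3.47% of all genes, and that of replicate 2 gave 2 of 30, against 2.60%.

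Among the microRNAs, let-7 and lin-4 had a peak, and mir-48, mir-84 and mir-241 had none, which makes 2 of 5, against 18 of all 261 microRNA genes, or 6.90%. The let-7 peak, 203 bp upstream, had a pooled signal of 94.1 (rank 808), with 48.6 in replicate 1 and 44.3 in replicate 2, and it was in replicate 1's own list. It also fell in the window of C05G5.7. The lin-4 peak, 305 bp upstream of lin-4 and in an intron of F59G1.4, had 91.7 (rank 872), with 35.7 in replicate 1 and 54.7 in replicate 2. Both signals lay within the range of the 6 peaks at the 10 timing genes, 79.2 to 124. The long noncoding RNA gene lep-5 had a peak only in the optimal list.

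Of the genes for partners of the microRNA machinery, nhl-2 and xrn-2 had a peak above the 124 of lin-66, and ain-1 did not. nhl-2, a TRIM-NHL gene whose product helps microRNA activity, had a pooled signal of 201 (rank 120), with 102 in replicate 1 and 100 in replicate 2, but the nearest gene was tag-340. ain-1, a GW182-family cofactor of Argonaute, had 94.0 in a coding exon, with 50.5 in replicate 1 and 48.4 in replicate 2. xrn-2, a gene for an exonuclease that degrades microRNAs, had a pair of peaks, of which the stronger had a pooled signal of 157, with 99.6 in replicate 1 and 54.2 in replicate 2. It was nearest to Y48B6A.1 and also in the window of the ribosomal protein gene rpl-43. alg-2, ain-2 and dcr-1 had no conservative peak, though alg-2 had a peak in the optimal list.

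Other regulators and outputs of the pathway made up the rest. puf-9, a Pumilio-family gene known for repressing hbl-1, had a peak 288 bp upstream with a pooled signal of 170 (rank 174), with 104 in replicate 1 and 53.3 in replicate 2. That peak also fell in the window of dct-11. din-1, the corepressor of DAF-12, had 89.3 at 724 bp upstream and 83.7 at a further peak. mab-10, the cofactor of LIN-29, had 88.9 in a coding exon, with 41.8 in replicate 1 and 45.5 in replicate 2. apl-1, the amyloid precursor-like gene, had 85.4 at 1327 bp upstream. myrf-2, related to myelin regulatory factor, had 77.3 in a coding exon nearest to arrd-28. sea-2 had 79.4 and 10.6, and the weaker of these was below the median of all candidate regions, 28.0. For the rest of the 30, which include lin-22, dre-1, blmp-1, nhr-23 and myrf-1, no conservative peak was called. D1046.2 itself had a peak in the optimal list and none in the conservative one, and unc-119, the transgene's marker, had none in either.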

How the data were processed

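Chromatin of 2 whole-worm L4 replicates of 1 group was immunoprecipitated with an antibody to GFP. Per the deposited notes, the authors provided candidate regions ranked by IDR and thresholded peaks on ce11, for each replicate and for both combined (conservative and optimal). The thresholded lists also derive from a further file that the ranked lists do not. The peak signal is the authors' deposited value on an unstated scale. The deposited score is the scaled IDR score, and no thresholded list went below 830. The ranked files hold the deposited −log10 of the global IDR. Aligner and peak caller: not given in the sources used here. Depth is unknown, so no counting interval can be given.

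The members and lists were chosen with earlier results of these data known. The named genes were the 10 members, D1046.2 and every listed pathway gene with a conservative peak. Others named were chosen after their values were seen. Genes came from the Ensembl release 115 annotation and sequences from the RefSeq genome of the same assembly (WBcel235, ce11), and no region passed the end of any of the 6 chromosomes. The combined ranked lists were told apart by their scores, which equal those of the thresholded peaks. The replicate signals are those of the overlapping region with the nearest summit in each replicate's ranked list. In overlapping annotation, coding exons took precedence over 5' and then 3' untranslated regions, introns and intergenic sequence. A summit could count for several genes. Nothing was tested for significance, since there was 1 group and the members were chosen by name with earlier results known. The counting was tested on simulated data. The settings varied were the list (optimal, or that of a single replicate), the stronger 50% of peaks, other windows, overlaps and promoters, merged peaks, peaks away from tRNA genes, the nearest gene only, another choice of replicate region and a wider motif window. Scripts ran in Python 3.11.15 with pandas 2.3.3, numpy 2.4.6 and matplotlib 3.10.9.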

Additional observations from a re-analysis of the deposited data

How the results depend on the processing

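Of 79 values recomputed under other settings, 56 stayed within 1.5 times the value reported or, for replicate signals, within their spread, and 23 moved. All replicate signals are among the 56, and each had the same value under the other choice of replicate region. With the list of a single replicate (replicate 1 alone or replicate 2 alone), 1 of the 10 timing genes had a peak in either case (lin-66 in replicate 1, lin-14 in replicate 2), at 1 peak and 0.717 peaks per 100 kb. The share of all protein-coding genes was then 3.47% and 2.60%, the timing genes with a promoter peak 1 and 0, and the other pathway genes 3 and 2. With the stronger 50% of the conservative peaks, 2 timing genes (alg-1 and lin-66), 4.26% of all genes, 2 peaks, 1.43 peaks per 100 kb, 2 promoters and 3 other pathway genes remained. With the gene body only, the values were 2 timing genes (alg-1 and daf-12), 3.54% of all genes, 3 peaks and 2.51 per 100 kb. Within 100 bp of the summit in place of 50 bp, 67.3% of conservative windows held a motif.

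The timing genes with a peak numbered 5 in the optimal list (8.20% of all protein-coding genes) and with any overlap (8.15%). They also numbered 5 with 5000 bp upstream (11.2%), with merged peaks (7.68%) and without peaks near tRNA genes (6.67%). With 500 bp upstream (5.31% of all genes) or the nearest 5' end only (5.15%), 4 timing genes had a peak, and lin-46 dropped out. The cause of these changes was not tested. Depth is unknown, so a gene without a peak cannot be read as unbound. The control library was not analysed here, and 2 replicates give no error for an IDR.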
